A study of Mus musculus with 8 samples.

Results

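The epithelial cells of embryonic day 13 (E13) mouse back skin were compared between p63 knockout (KO) and control libraries. A cell was chosen by its own RNA: a barcode needed at least 1000 genes, at most 10% mitochondrial UMIs (unique molecular identifiers, 1 per captured RNA molecule) and a UMI of at least 4 of 12 epithelial markers, namely the adhesion genes Epcam and Cdh1, the tight junction genes Cldn6, Cldn7 and Lsr, the splicing factors Esrp1 and Esrp2, the transcription factor Grhl2, the trafficking genes Rab25 and Ap1m2, the protease Prss8 and the protease inhibitor Spint1. The rule held no keratin and not Trp63. It selected 580 of 3894 filtered cells at E13, out of 7486 filtered cells in the series: 165 in wild type (WT), 155 in the heterozygote (HET), 107 in KO 1 and 153 in KO 2.

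The libraries were made with a 10x 3' kit from dissected back skin digested with collagenase and trypsin. The control arm was 1 WT library and 1 HET library, whose genotype is labelled as heterozygous for a GFP knock-in at ΔNp63. The KO arm was 2 libraries labelled as KO for the same knock-in. The labels name no other allele, no sex, no pooling of embryos and no separate litters, so the p-values measure only the spread between these 4 libraries, which may be technical. HET carries the knock-in allele and was nonetheless counted as control.

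Trp63 encodes p63, a transcription factor of the p53 family, and its ΔN form is the main one in the basal layer of the epidermis. The early surface ectoderm is a simple epithelium that makes keratins 8 and 18. When it stratifies, the basal cells make keratins 5 and 14 in their place and build desmosomes and hemidesmosomes, and mice without p63 are known to lack a stratified epidermis.

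Both arms carried the epithelial markers that chose the cells, and the values are given as a description with no test. Where 4 values follow each other they are in the order WT, HET, KO 1 and KO 2. All values in CPM are UMIs of a gene summed over the selected cells of a library and scaled to a library total of 1000000. Epcam was at 272, 253, 671 and 599 CPM in WT, HET, KO 1 and KO 2. Cdh1 was at 60.9, 66.5, 91.6 and 90.9 CPM, Esrp1 at 64.7, 64.8, 70.3 and 56.4 CPM, Grhl2 at 30.5, 21.7, 22.9 and 17.4 CPM, and Rab25 at 23.4, 13.2, 51.5 and 39.8 CPM. The tight junction genes Cldn6 (75.7, 72.8, 279 and 251 CPM) and Cldn7 (25.1, 16.6, 324 and 309 CPM) were higher in both KO libraries. The median selected cell held UMIs of 7 of the 12 markers in WT and HET, 11 in KO 1 and 9 in KO 2. The transcription factors of surface ectoderm Tfap2a (45.1, 46.2, 46.1 and 44.9 CPM, adjusted p = 0.55) and Tfap2b (409, 474, 469.9 and 451 CPM, adjusted p = 0.84) did not pass the test.

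The selected cells held 5032640 to 6582533 UMIs per library, with medians of 29097 to 39922 UMIs per cell. Barcodes shared between pairs of libraries numbered 0 to 2. Selected cells whose fibroblast-marker share was above 0.5 times the median of marker-poor cells (at most 1 of the 12 markers) numbered 3 in WT, 4 in HET, 18 in KO 1 and 36 in KO 2. The summed level of the 12 fibroblast markers was 792, 1099, 1533 and 1883 CPM in the selected cells and 5609 to 6461 CPM in marker-poor cells. Of the 12, 6 were called higher and 2 lower in KO. Col1a1 was at 59.6, 86.5, 257 and 285 CPM, while Dcn was at 231, 276, 103 and 175 CPM. A level sum can therefore hide members of opposite directions. Leaving out every selected cell with a share above 0.25 times the median of marker-poor cells kept 162, 148, 83 and 100 cells. The fibroblast sum was then 732, 800, 758 and 873 CPM. Named genes whose call or sign differs without these cells are given both ways. Counts for gene lists are given both ways where the rises or the falls moved by more than 1 gene. KO 2 also stood apart for markers of neurons (8.51, 9.61, 40.3 and 154 CPM over 8 genes), melanoblasts (8.51, 5.11, 8.74 and 171 CPM over 8 genes) and muscle (18.1, 65.7, 97.0 and 241 CPM over 8 genes). Endothelial markers (8 genes) were at 44.2, 34.6, 97.8 and 185 CPM and mural markers (9 genes) at 37.8, 75.3, 166 and 213 CPM. Without cells with fibroblast RNA 4 of these lists remained higher in both KO libraries than in both controls, with endothelial markers at 44.7, 35.4, 114 and 241 CPM, mural markers at 37.4, 60.7, 82.1 and 135 CPM, muscle markers at 18.4, 65.3, 112 and 305 CPM and neuron markers at 6.49, 9.87, 16.4 and 47.5 CPM. Erythroid markers (8 genes) went the other way, at 3904, 6718, 3112 and 2598 CPM in the selected cells and 45736, 43572, 15601 and 8730 CPM in marker-poor cells, and 6 of 7 tested were called lower in KO. Markers of internal epithelia summed to at most 4.64 CPM over 14 genes, and Foxa1, Foxa2, Nkx2-1, Sftpc, Pax2, Pax8 and Vil1 were at 0 in all 4 libraries. Among cells at the edge of the rule, 93 in KO 2 held 3 markers and 28 held 4, with median fibroblast shares of 0.468% and 0.51% of UMIs. In WT 15 cells held 3 markers and 23 held 4.

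Of 12069 genes tested with edgeR's quasi-likelihood F test, 3266 (27.1%) passed an adjusted p under 0.05: 1770 (14.7%) were higher and 1496 (12.4%) lower in KO. The median log2 fold change over all tested genes was 0.01. DESeq2 called 1840, and leaving out WT lowered the edgeR count to 2143. Without the cells with fibroblast RNA, 1730 of 11666 genes (14.8%) were higher and 1475 (12.6%) lower. In marker-poor cells of the same libraries, 25 of 13453 genes (0.186%) passed. The KO difference in epithelial cells differed from that in marker-poor cells for 2195 of 13039 genes (16.8%) with edgeR and 746 with DESeq2.

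**Figure D1:**
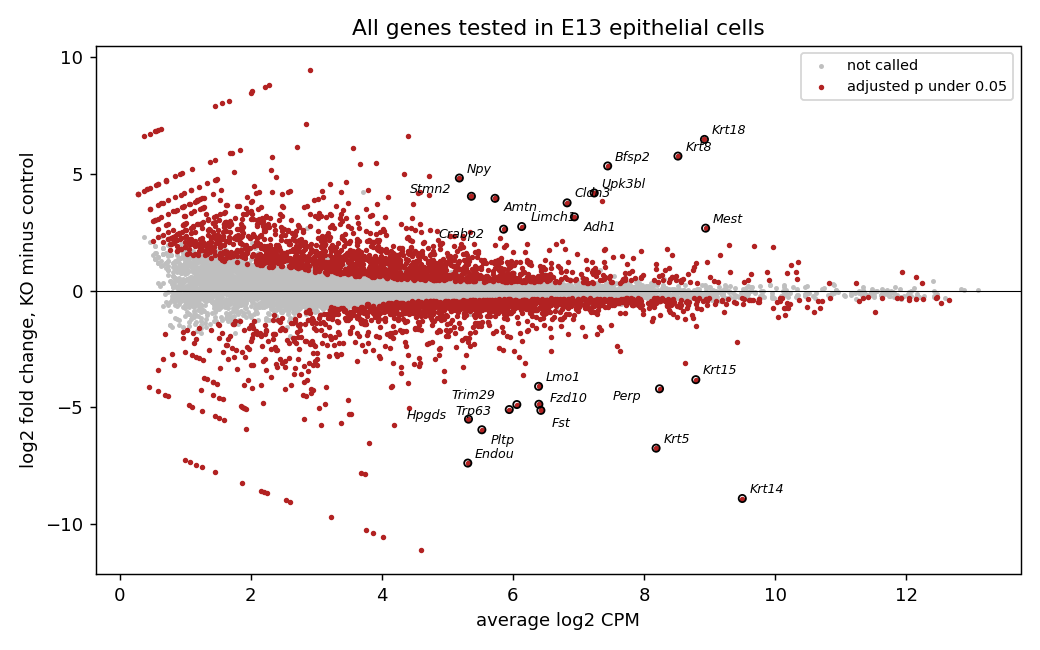
Each point is a gene tested in E13 epithelial cells, with its average log2 CPM across and the log2 fold change of KO against control up; red points passed an adjusted p under 0.05. The circled genes are the 12 with the deepest fall and the 12 with the steepest rise, from Krt14 at -8.92 to Krt18 at 6.48. They were taken from called genes with no overlap of the arms and an average log2 CPM of at least 5. Genes of the marker rule were left out.

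Trp63 itself was at 143 and 85.4 CPM in WT and HET against 3.78 and 3.32 CPM in KO 1 and KO 2 (log2 fold change -5.10, SE 0.31, adjusted p = 8.5e-05), from 940, 551, 19 and 20 UMIs. Both KO libraries were far below both controls, and HET lay below WT. The labels do not say which part of the gene the knock-in replaces, so the reads left in KO check the RNA level and not the protein. After each cell was thinned to 5000 UMIs, Trp63 had a UMI in 53.3% of WT cells, 31.0% of HET cells, 2.8% of KO 1 cells and 1.31% of KO 2 cells. In marker-poor cells the shares were 2.25%, 0.634%, 0% and 0%. Trp73, which encodes the sister factor p73, had 62 UMIs in control and 2 in KO, a ratio of 26.3 (95% counting interval 6.98 to 222).

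The basal keratins Krt5 and Krt14 were nearly absent from KO epithelium and the simple keratins Krt8 and Krt18 took a high level there. Krt14, the acidic keratin of basal cells, was at 1814 and 978 CPM in WT and HET against 2.19 and 3.81 CPM in KO 1 and KO 2 (log2 fold change -8.92, SE 0.40, adjusted p = 2.7e-05), 483-fold lower. Its partner Krt5 was at 805, 308, 7.15 and 3.98 CPM (log2 fold change -6.76, SE 0.54, adjusted p = 0.00021). Both lay lower in HET than in WT and far lower in either KO library. Krt8, the basic keratin of simple epithelia, was at 22, 3.41, 827 and 659 CPM (log2 fold change 5.77, SE 0.55, adjusted p = 0.00044). Its partner Krt18 was at 13.5, 7.13, 1158 and 822 CPM (log2 fold change 6.48, SE 0.29, adjusted p = 2.7e-05), 89.5-fold higher. Krt8 and Krt18 lie next to each other on chromosome 15 (GRCm38; GENCODE M21), from 101996698 to 102004482 and from 102028180 to 102032027, and Krt5 lies on the same chromosome from 101707070 to 101712898. Krt14 lies on chromosome 11 from 100203162 to 100207548.

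Other keratins moved less. Krt15, another basal keratin, was at 1139 and 459 CPM in WT and HET against 68.2 and 52.7 CPM in KO 1 and KO 2 (log2 fold change -3.82). Krt17, found in periderm and hair placodes, was at 192, 58.9, 12.1 and 9.78 CPM (log2 fold change -3.61). Krt1, a keratin of suprabasal cells, was at 36.8, 23.1, 4.37 and 3.15 CPM (log2 fold change -3.10), and its partner Krt10 fell by less, at 79.6, 68.8, 37.8 and 42.3 CPM. Krt7 (85.2, 28.4, 133 and 110.1 CPM, adjusted p = 0.096) and Krt19 (55.3, 5.89, 61 and 44.4 CPM, adjusted p = 0.49) did not pass the test, and for both the HET library lay lowest. Without WT both passed, with log2 fold changes of 1.98 and 3.03. Without cells with fibroblast RNA Krt7 passed as well, at 1.21 (adjusted p = 0.036). Of 11 keratins tested, 2 rose and 6 fell.

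**Figure D2:**
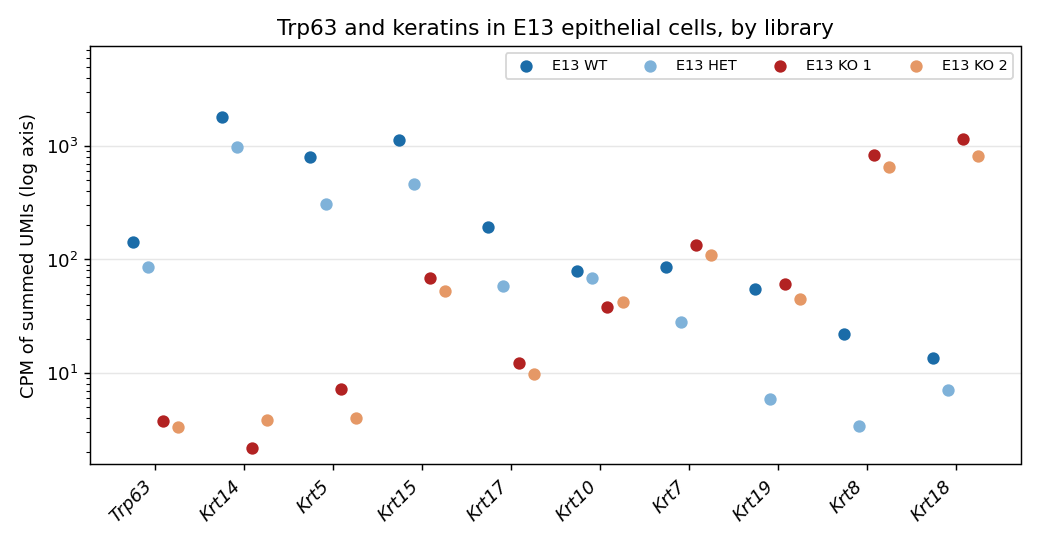
Points give the level of Trp63 and 9 keratins in the summed epithelial cells of each of the 4 E13 libraries, in CPM on a log axis. Krt14 drops from 1814 CPM in WT to 2.19 in KO 1, while Krt18 climbs from 13.5 to 1158 CPM. HET lies below WT for Trp63 and for all 9 keratins, basal and simple.

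The keratin pairs were also counted in single cells. At 5000 UMIs per cell, a UMI of Krt5 or Krt14 with none of Krt8 or Krt18 was found in 92.7% of WT cells, 94.8% of HET cells, 0.935% of KO 1 cells and no KO 2 cell. The reverse, Krt8 or Krt18 with neither basal keratin, was found in no WT or HET cell, 86.9% of KO 1 cells and 80.4% of KO 2 cells. UMIs of both pairs were found in 7.27%, 3.87%, 3.74% and 1.96% of cells. Neither pair was found in 17.6% of KO 2 cells and 8.41% of KO 1 cells. With 2 libraries an arm, the smallest two-sided exact permutation p is 0.333, so these shares carry no test. Among marker-poor cells, 40.8% and 25.3% of those in WT and HET had a UMI of Krt5 or Krt14 alone, and 27.5% and 36.6% of those in KO 1 and KO 2 had one of Krt8 or Krt18 alone. The shares in epithelial cells lay well above those in marker-poor cells of the same library. The source of the keratin UMIs in marker-poor cells was not tested.

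**Figure D3:**
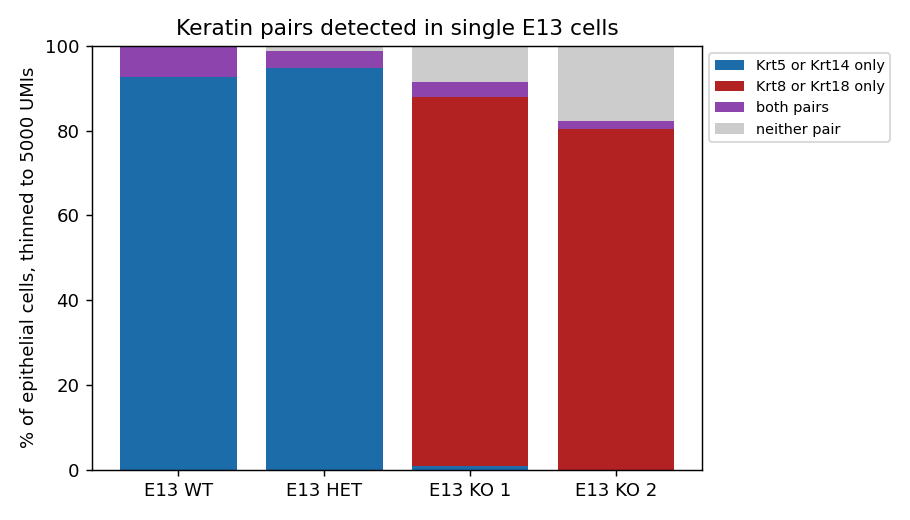
Stacked bars give the percentage of E13 epithelial cells in each library with UMIs of Krt5 or Krt14 only, Krt8 or Krt18 only, both pairs or neither, after thinning each cell to 5000 UMIs. Cells with only the basal pair make up 92.7% of WT and 94.8% of HET, and cells with only the simple pair 86.9% of KO 1 and 80.4% of KO 2.

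The keratin UMIs of marker-poor cells enter the comparison of the cell sets. Krt14 in marker-poor cells was at 83.5, 50.3, 0.136 and 0.565 CPM and Krt18 at 1.03, 0.768, 27.7 and 52.8 CPM, the same order of libraries at a far lower level. The difference of the 2 cell sets was not called for Krt14, at -1.13 (SE 0.63, adjusted p = 0.35), or Krt18, at 1.21 (SE 0.82, adjusted p = 0.36). Nor was it called for Trp63 (adjusted p = 0.22), Krt5 (0.36), Perp (0.078), Trim29 (0.63), Bfsp2 (0.24) or Upk3bl (0.87). Perp, Trim29 and Bfsp2 passed in marker-poor cells as well, in the same direction. Among other genes of large change, it was called for Endou, Pltp, Hpgds, Fzd10, Lmo1, Mest, Adh1 and Crabp2.

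The other genes with the deepest falls were of several kinds. Endou, an endoribonuclease, was at 79.1 and 70.2 CPM in WT and HET against 0.795 and 0.166 CPM in KO 1 and KO 2. Pltp, which transfers phospholipids between lipoproteins, was at 95.7, 76.4, 1.79 and 1.16 CPM, and Hpgds, a prostaglandin D synthase, at 69.4, 78.7, 1.39 and 1.99 CPM. Fst, which encodes the activin inhibitor follistatin, was at 229, 91, 7.15 and 2.82 CPM and Lmo1, a transcriptional co-regulator, at 197, 108, 6.76 and 11.8 CPM. Trim29 was at 145, 101, 4.37 and 4.48 CPM. These 6 genes were chosen among genes whose arms did not overlap, and log2 fold changes ran from -4.11 for Lmo1 to -7.40 for Endou. The adjusted p of Fst was 0.00065 and that of Endou 2.4e-05.

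The steepest rises outside the keratins included genes not usually listed for epidermis. Bfsp2, which encodes a beaded filament protein of the lens, was at 6.68 and 9.45 CPM in WT and HET against 354 and 349 CPM in KO 1 and KO 2 (log2 fold change 5.35, SE 0.17, adjusted p = 1.1e-05). Upk3bl, a uroplakin-like gene, was at 21.9, 8.52, 331 and 262 CPM, and Amtn, which encodes the enamel protein amelotin, at 10.5, 1.86, 138 and 68.8 CPM. Npy, a neuropeptide, was at 2.43, 2.32, 101 and 45.4 CPM, while its level in marker-poor cells was 24.5, 24, 7.08 and 3.58 CPM. Adh1, an alcohol dehydrogenase that can act on retinol, was at 24.3, 23.2, 180.2 and 275 CPM. Limch1 was at 24.2, 11, 152 and 101 CPM and the imprinted gene Mest at 102, 154, 817 and 937 CPM. Crabp2, which carries retinoic acid in the cell, was at 12.9, 18.1, 99.5 and 107 CPM. As genes with overlapping arms were left out of this choice, both KO libraries lay above both controls by rule. Log2 fold changes ran from 2.63 for Crabp2 to 5.35 for Bfsp2. Stmn2, a gene of neurons, was at 4.86, 4.18, 26.2 and 133 CPM. Its log2 fold change was 4.05 with all cells and 2.08 (adjusted p = 0.032) without cells with fibroblast RNA, and the neuron markers moved with it, so that their part in the result was not tested.

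Of 38 genes often named as p63 targets, 3 of 36 tested rose and 27 fell, with a median log2 fold change of -1.76. Beside these counts, and those of every other list, stand 14.7% of all tested genes that rose and 12.4% that fell. No list was tested as a set. Besides the keratins, Perp, which encodes a desmosomal membrane protein first known as a p53 target, was at 605 and 497 CPM in WT and HET against 32.6 and 31 CPM in KO 1 and KO 2 (log2 fold change -4.21, SE 0.14, adjusted p = 1.1e-05). The transcription factor Bnc1 was at 18.1, 12.7, 0.596 and 0.498 CPM, and Zfp750, a factor of terminal differentiation, at 19, 17.7, 4.77 and 3.81 CPM. Sfn, which encodes stratifin, was at 763, 502, 249 and 223 CPM. The targets that rose were Runx1 (2.73, 2.63, 18.9 and 21.1 CPM), Tfap2c (19.1, 19.4, 37.8 and 36.3 CPM) and Gata3. For Gata3 the values were 73.4, 73.1, 97.2 and 122 CPM, and the call was lost without WT, without HET or without KO 2 (lowest log2 fold change 0.32). Cdkn1a, which encodes the cell-cycle inhibitor p21, was at 9.72, 7.28, 11.7 and 16.4 CPM and did not pass (adjusted p = 0.097).

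Promoter letters are shown for a pair of fallen genes that hold a p53-family motif and for Krt5 and Krt18, a basal and a simple keratin that hold none. The motif searched was the p53-family core, 2 short cores 6 bases apart, on either strand, within the 300 bases from 250 before to 50 after the RefSeq start. It was present in 7.34% of all 27025 RefSeq promoters, in 4.97% of those of tested genes, in 6.39% of those of genes that fell (73 of 1143) and in 3.81% of those of genes that rose (49 of 1285). Of the 19 listed p63 targets with a promoter in the table, 3 (15.8%) held it. These shares are a description. The bases upstream of the start are printed 5′ to 3′ on the gene's strand from RefSeq (GRCm38.p6), with matches in capitals.
Sfn, chr4:133602169-133602418, minus strand: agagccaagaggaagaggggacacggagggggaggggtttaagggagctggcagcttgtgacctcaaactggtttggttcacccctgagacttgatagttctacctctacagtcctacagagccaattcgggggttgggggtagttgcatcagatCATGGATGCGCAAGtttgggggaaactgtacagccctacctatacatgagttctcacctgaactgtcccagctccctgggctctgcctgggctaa
Krtdap, chr7:30787655-30787895, plus strand: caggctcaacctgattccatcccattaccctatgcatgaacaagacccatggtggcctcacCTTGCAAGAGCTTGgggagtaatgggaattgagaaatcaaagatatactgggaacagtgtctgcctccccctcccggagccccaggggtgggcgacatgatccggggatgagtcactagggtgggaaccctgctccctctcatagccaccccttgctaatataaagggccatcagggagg
Krt5, chr15:101712906-101713155, minus strand: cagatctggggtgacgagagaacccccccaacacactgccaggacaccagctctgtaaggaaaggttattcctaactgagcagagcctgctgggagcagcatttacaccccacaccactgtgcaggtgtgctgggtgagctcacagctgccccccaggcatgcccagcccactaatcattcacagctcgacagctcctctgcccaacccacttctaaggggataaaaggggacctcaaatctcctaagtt
Krt18, chr15:102027966-102028179, plus strand: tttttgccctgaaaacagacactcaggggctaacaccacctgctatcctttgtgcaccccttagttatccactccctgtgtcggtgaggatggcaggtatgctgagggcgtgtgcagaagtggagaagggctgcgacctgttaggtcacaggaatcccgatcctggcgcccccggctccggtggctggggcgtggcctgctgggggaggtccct
Sfn and Krtdap each hold 1 match and both fell in KO. Of the other named genes, Aen, Ifitm3 and Gjb6, which fell, Igfbp2 and Gata3, which rose, and Cdkn1a, which did not pass, hold the motif in their windows. A match is only a match of letters, and its absence from these windows for Krt5 and Krt18 is a statement about the windows alone.

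Attachment and junction genes changed in both directions. Of hemidesmosome and basement membrane genes, 7 of 29 tested rose and 11 fell (median -0.16). Col17a1, the transmembrane collagen of hemidesmosomes, had 119 and 102 UMIs in WT and HET and none in KO 1 or KO 2, which is at least 62.5-fold lower against a floor of 3 UMIs over the arm. Dst, whose BPAG1 form links keratin to hemidesmosomes, was at 104 and 83 CPM in WT and HET against 15.7 and 18.7 CPM in KO 1 and KO 2, and Itgb4, the beta chain of their integrin, at 43.9, 40.4, 10.3 and 9.45 CPM. Fermt1, which activates integrins, was at 129, 121, 18.7 and 12.6 CPM. Of the laminin chains that hemidesmosomes bind, Lama3 was at 17.2, 15.2, 2.38 and 4.64 CPM and Lamb3 at 10.3, 7.59, 2.58 and 2.16 CPM. Members that rose included the nidogens Nid1 (3.34, 3.56, 11.7 and 23.2 CPM) and Nid2 (1.06, 2.48, 9.94 and 16.3 CPM) and perlecan, Hspg2 (33.4, 33.6, 68 and 84.4 CPM). Marker-poor cells held both nidogens at higher levels, with Nid1 at 39.9, 27.9, 44.1 and 47.3 CPM, and its log2 fold change was 2.25 with all cells and 1.72 without cells with fibroblast RNA.

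Of 10 desmosome genes tested, 1 rose and 6 fell. Pkp1, the plakophilin of suprabasal epidermis, had 321 UMIs in control and 1 in KO, a ratio of 272 (95% counting interval 48.5 to 10792). Pkp2, the plakophilin of simple epithelia and heart, was at 1.97 and 1.39 CPM in WT and HET against 21.5 and 18.4 CPM in KO 1 and KO 2 (log2 fold change 3.45). Dsc3, a desmocollin of basal cells, was at 11.1, 5.73, 0.994 and 0.829 CPM, and Dsp, which ties keratin to the desmosome, at 115, 103, 37 and 33.2 CPM. Dsg2 (17, 14.6, 20.5 and 20.9 CPM) and Jup (102, 95.9, 123 and 116 CPM) did not pass, with adjusted p of 0.21 and 0.25. Without cells with fibroblast RNA both passed, at log2 fold changes of 0.51 and 0.32.

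Of tight, adherens and gap junction genes, 16 of 29 tested rose and 6 fell (median 0.49). Cldn3, a claudin of simple epithelia, was at 23.2 and 6.82 CPM in WT and HET against 235 and 203 CPM in KO 1 and KO 2 (log2 fold change 3.76, SE 0.39, adjusted p = 0.00063). Cldn4 was at 89, 80.3, 219 and 206 CPM, Cldn8 at 9.72, 8.68, 42.9 and 39.1 CPM, and the tight junction protein gene Ocln at 4.56, 3.56, 19.9 and 18.1 CPM. Marveld2, at 3.95, 2.94, 20.9 and 19.7 CPM, encodes tricellulin, found where cells meet at corners. The scaffold Cgn was at 12.5, 12.2, 45.7 and 41.1 CPM and the polarity gene Crb3 at 15.2, 16.3, 63.4 and 59.2 CPM. The barrier claudin of epidermis went the other way, with Cldn1 at 13.8, 11.9, 1.59 and 1.99 CPM (log2 fold change -2.92). The connexins Gja1 (270.4, 199, 63.6 and 74.5 CPM) and Gjb6 (353, 299, 174 and 172 CPM) fell too. The nectins were split, with Pvrl1 at 50.9, 45.9, 12.1 and 14.4 CPM and Pvrl3 at 15.6, 21.7, 104 and 87.7 CPM. Cldn6 and Cldn7, of the same family, were part of the rule that selected the cells and are not counted.

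Of a list of simple epithelium genes, 11 of 20 tested rose and 1 fell (median 1.12). It shares the keratins and claudins above. Cystm1, which encodes a small membrane protein, was at 0.152 and 0.62 CPM in WT and HET against 39.1 and 46.9 CPM in KO 1 and KO 2 (log2 fold change 6.64), and Slc40a1, the iron exporter ferroportin, at 0.456, 1.86, 38.7 and 42.1 CPM (log2 fold change 5.01). Dab2, an endocytic adaptor, was at 7.75, 8.83, 33.6 and 29.9 CPM, and the transcription factor Elf3 at 4.71, 6.2, 21.5 and 12.3 CPM. Periderm, the outer cell layer of the embryo, gave no single direction, since of 10 tested genes 2 rose and 4 fell. Its marker Gabrp was at 66.2, 17.5, 123 and 175 CPM, with HET well below WT, and its rise was lost with DESeq2 (adjusted p = 0.22). Krt4, another periderm gene, was at 7.14, 0.155, 1.99 and 1.66 CPM and did not pass (adjusted p = 0.48).

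Differentiation genes were low in every E13 library and lower in KO. Of the list, 1 of 13 tested rose and 8 fell (median -0.98). Krtdap was at 44.5 and 36.1 CPM in WT and HET against 3.78 and 5.97 CPM in KO 1 and KO 2, Dmkn at 10.6, 8.68, 0.397 and 0.663 CPM and the water and glycerol channel Aqp3 at 9.27, 3.87, 0.596 and 0.166 CPM. Lor, which encodes the cornified envelope protein loricrin, was at 9.72, 12.9, 0.994 and 0.995 CPM. Sbsn was at 12.3, 12.1, 11.3 and 9.29 CPM and did not pass (adjusted p = 0.26). Among epidermal transcription factors, 13 of 38 tested rose and 11 fell (median -0.07). Cebpa, which acts in differentiation, was at 47.9, 46.9, 7.15 and 10.8 CPM, and Barx2 at 39.3, 60.0, 14.5 and 25.9 CPM. Trps1 was at 11.8, 11.2, 49.9 and 47.9 CPM, Msx2 at 8.51, 7.75, 20.7 and 23.7 CPM and Elf5, a factor of trophoblast and glandular epithelium, at 1.97, 0.465, 8.74 and 6.8 CPM. Klf5 was at 63.5, 56.9, 69 and 53.6 CPM and did not pass (adjusted p = 0.75).

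**Figure D4:**
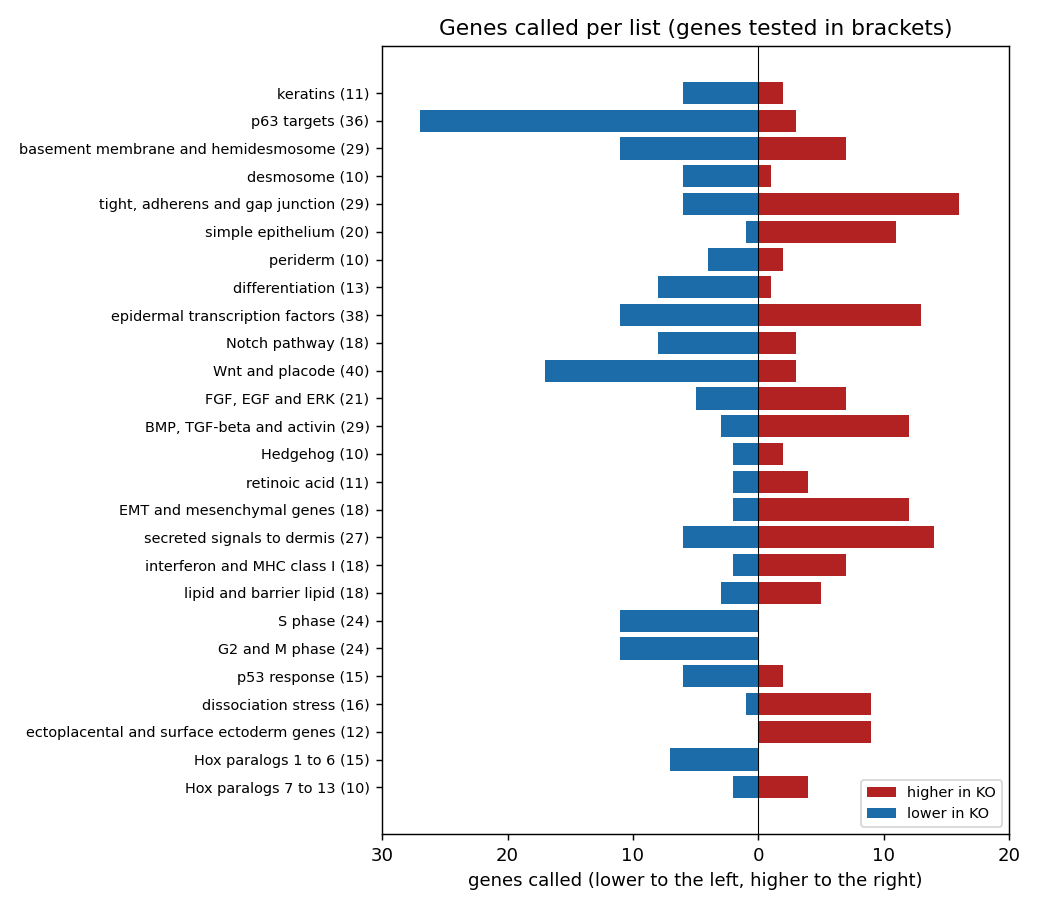
Bars give the number of genes called lower (left, blue) and higher (right, red) in KO for 26 lists, with the number tested in brackets. The p63 target list has 27 falls of 36 tested, and the tight, adherens and gap junction list 16 rises of 29. Among all tested genes 14.7% were higher and 12.4% lower.

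Notch receptors signal between touching cells through Jagged and Delta ligands, and in skin they act as cells leave the basal layer. Of Notch pathway genes, 3 of 18 tested rose and 8 fell (median -0.57). The ligands fell, with Jag2 at 10.2 and 10.5 CPM in WT and HET against 1.19 and 0.995 CPM in KO 1 and KO 2, Jag1 at 23.2, 28.2, 4.77 and 5.8 CPM and Dll1 at 14.1, 10.2, 0.795 and 0.995 CPM (log2 fold change -3.82). The receptor Notch1 was at 113, 99.5, 17.5 and 20.2 CPM (log2 fold change -2.58, SE 0.13, adjusted p = 4.7e-05), and the receptor Notch3 at 10.5, 10.2, 56.4 and 56.6 CPM (log2 fold change 2.35, SE 0.14, adjusted p = 7.6e-05). The arms did not overlap for either receptor, and their directions were opposite. Notch2 was at 8.2, 9.3, 7.95 and 13.3 CPM and did not pass (adjusted p = 0.65). The target genes Nrarp, a feedback inhibitor, and Hes1, a repressor, were at 68.1, 62, 11.5 and 15.1 CPM and 163, 162, 64.6 and 84.4 CPM. The Fringe enzymes, which modify the receptors, were split, with Lfng at 26.7, 31, 8.94 and 9.62 CPM and Mfng at 0.76, 0.465, 4.77 and 8.46 CPM. The KO difference was unlike that of marker-poor cells for Notch1, at -1.93 (SE 0.16, adjusted p = 0.00017), and Notch3, at 2.21 (SE 0.22, adjusted p = 0.00033).

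Wnt ligands from the ectoderm drive the first hair placodes, with Eda receptor signalling. Of Wnt and placode genes, 3 of 40 tested rose and 17 fell (median -0.26), and without cells with fibroblast RNA 5 of 40 rose and 16 fell. The ligand gene Wnt3a had 266 and 128 UMIs in WT and HET and none in KO, at least 111-fold lower. Wnt16 had 98 and 42 UMIs and none in KO, at least 39.6-fold lower. Dkk4, a Wnt inhibitor of placodes, had 295 and 56 UMIs and none in KO, at least 99.3-fold lower, and HET lay well below WT. The receptor Fzd10 was at 149.9 and 161 CPM in WT and HET against 3.97 and 7.13 CPM in KO 1 and KO 2 (log2 fold change -4.87, SE 0.21, adjusted p = 2.7e-05) and Fzd6 at 52.7, 40.9, 9.74 and 7.96 CPM. Kremen2, a co-receptor of Dkk proteins, was at 356, 298, 57.6 and 56.9 CPM (log2 fold change -2.61, SE 0.12, adjusted p = 2.9e-05). The ligand genes Wnt10b (15.5, 13.6, 1.39 and 2.99 CPM), Wnt4 (204, 179, 78.9 and 59.4 CPM) and Wnt7b (133, 101, 44.5 and 38.3 CPM) fell by less than Wnt3a and Wnt16. Edaradd, the adaptor of the Eda receptor, was at 24.9, 14.7, 0.199 and 1.33 CPM. Other ectodermal ligands did not pass, with Wnt6 at 530.2, 407, 580.4 and 543 CPM (adjusted p = 0.38) and Wnt3 at 87.7, 78.7, 95.8 and 80.9 CPM (adjusted p = 0.96). The pathway target Axin2 was at 31.9, 30.8, 39.5 and 48.1 CPM (adjusted p = 0.073), and without KO 1 its log2 fold change of 0.49 passed, while Lef1, a Wnt-responsive factor of placodes, was at 206, 182, 108 and 111 CPM.

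Receptors of growth factors were among the genes called in either direction. Fgfr2, whose epithelial form receives dermal FGFs, was at 154 and 159.6 CPM in WT and HET against 25.8 and 29.2 CPM in KO 1 and KO 2 (log2 fold change -2.60, SE 0.12, adjusted p = 2.8e-05). Egfr, the receptor of EGF, was at 53.3, 42.9, 6.95 and 8.29 CPM (log2 fold change -2.74, SE 0.18, adjusted p = 0.0001). Fgfr1, mostly a receptor of mesenchyme, was at 11.8, 17.8, 37.4 and 41.6 CPM, and Erbb3 at 19.1, 21.7, 39.5 and 41.6 CPM. Marker-poor cells held Fgfr1 at 91.4, 93.9, 84.2 and 93.3 CPM, and without cells with fibroblast RNA its log2 fold change was 1.11 in place of 1.32. The ERK targets Etv5 (10.6, 14.7, 2.98 and 4.15 CPM) and Spred2 (22.2, 25.6, 10.9 and 11.4 CPM) fell. In the list of FGF, EGF and ERK genes, 7 of 21 tested rose and 5 fell (median 0.74), and without cells with fibroblast RNA 10 of 20 rose and 5 fell. The interaction with cell set was -2.02 (SE 0.19, adjusted p = 0.00024) for Fgfr2 and -3.02 (SE 0.29, adjusted p = 0.00032) for Egfr.

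In the BMP, TGF-beta and activin list, 12 of 29 tested rose and 3 fell, and without cells with fibroblast RNA 6 rose and 2 fell of 27. Tgfb2, a TGF-beta ligand, was at 15.2 and 8.68 CPM in WT and HET against 71.7 and 59.4 CPM in KO 1 and KO 2 (log2 fold change 2.36, SE 0.23, adjusted p = 0.00049), and the receptor Tgfbr2 at 5.01, 7.13, 19.7 and 18.6 CPM. The inhibitor Smad7 was at 7.6, 8.37, 21.7 and 25.7 CPM, and Cyr61, a matricellular gene, at 13.5, 14.9, 51.9 and 70.0 CPM. These 4 genes passed without cells with fibroblast RNA as well, with log2 fold changes from 1.53 for Tgfbr2 to 2.49 for Cyr61. The BMP ligand Bmp7 was at 143, 145, 73.3 and 58.4 CPM. Inhba, an activin chain, was at 4.41, 4.8, 11.3 and 18.4 CPM, but its log2 fold change went from 1.60 to -0.53 (adjusted p = 0.32) without those cells. Fstl1 was at 69.3, 80.3, 122 and 122 CPM and likewise went from 0.60 to -0.04 (adjusted p = 0.87). Inhba stood at 91, 61.2, 56.4 and 74.6 CPM and Fstl1 at 414, 343, 465 and 411 CPM in marker-poor cells.

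The same cells touched the list of mesenchymal and epithelial-mesenchymal transition genes most. With all cells, 12 of 18 rose and 2 fell (median 1.25). Without cells with fibroblast RNA 5 of 17 rose and 2 fell (median 0.38). Prrx1, a fibroblast transcription factor, was at 23.1 and 36.1 CPM in WT and HET against 105 and 95.5 CPM in KO 1 and KO 2, and its log2 fold change of 1.66 became 0.38 (adjusted p = 0.29). Cdh11 went from 1.84 to 0.45 (adjusted p = 0.26) and Twist1 from 1.92 to 0.82 (adjusted p = 0.093). Vim, the intermediate filament of mesenchyme, was at 113, 225, 457 and 598 CPM and kept a log2 fold change of 1.33 (adjusted p = 0.003). Cdh2, which encodes N-cadherin, was at 1.37, 0.62, 5.56 and 9.95 CPM and kept 2.55 (adjusted p = 0.0082). Endothelial, mural and muscle markers remained higher in KO in those cells, as given above, and their part in the levels of Vim and Cdh2 was not tested. Snai2, a repressor of epithelial genes that basal cells also make, was at 41.5, 43.8, 14.5 and 13.4 CPM and fell by more without those cells, from -1.71 to -3.29 (adjusted p = 1.6e-05).

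Signals from epithelium to its surroundings changed in both directions, and 14 of 27 tested rose and 6 fell (median 0.59). The neurotrophin Ntf3 was at 24.9 and 21.5 CPM in WT and HET against 3.58 and 4.81 CPM in KO 1 and KO 2 (log2 fold change -2.55, SE 0.22, adjusted p = 0.0003). Kitl, the ligand of the Kit receptor of melanoblasts, was at 31.8, 37.2, 2.98 and 7.46 CPM, and Pdgfa, a ligand for dermal fibroblasts, at 395, 392, 213 and 197 CPM. Among genes of axon guidance cues, Sema3a was at 9.42, 12.1, 67.8 and 50.9 CPM (log2 fold change 2.36, SE 0.20, adjusted p = 0.0003) and Slit2 at 3.49, 5.11, 32.2 and 25.5 CPM (log2 fold change 2.64, SE 0.24, adjusted p = 0.00039). Sema3c (log2 fold change 1.01) and Sema3f (0.54) rose by less, and Ntn1 (6.68, 8.99, 6.76 and 11.8 CPM, adjusted p = 0.75) did not pass. The call of Sema3f was lost without WT and without KO 2 (log2 fold change 0.46 and 0.45). Edn3, a ligand of melanoblasts, was at 9.57, 8.99, 26 and 26 CPM, and Pdgfb at 2.58, 2.63, 10.5 and 11.1 CPM. Igfbp2, which binds insulin-like growth factors, was at 897, 616, 2067 and 1727 CPM. The chemokine Cxcl14 was at 3654, 3344, 6155 and 5116 CPM. Leaving out cells with fibroblast RNA gave 13 rises and 6 falls of 26.

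**Figure D5:**
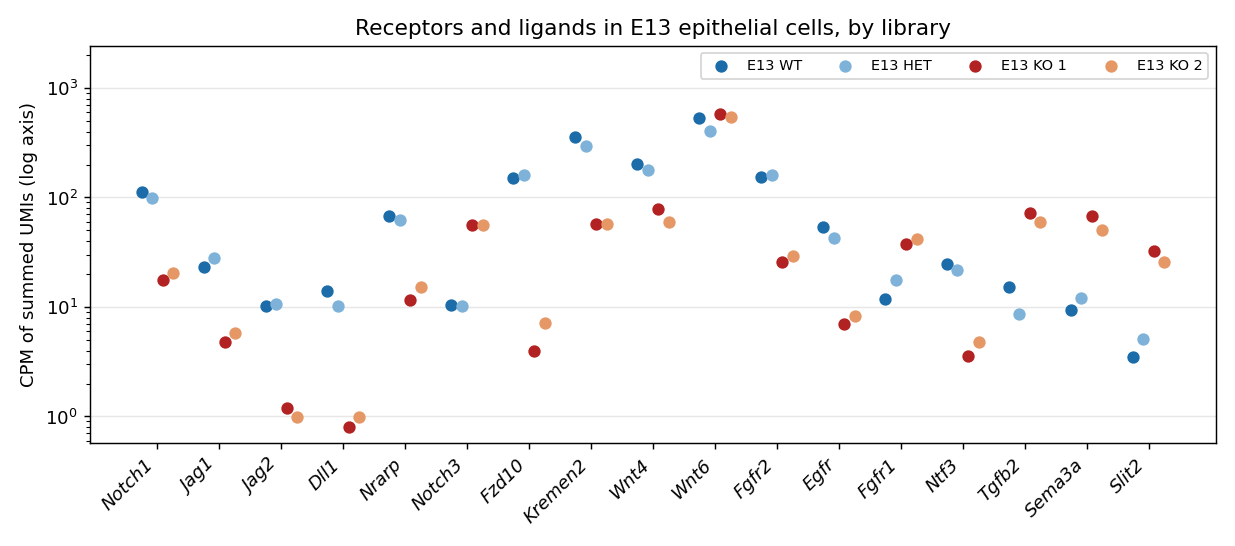
Points give the level of 17 receptor, ligand and target genes in the summed E13 epithelial cells of each library, in CPM on a log axis. Jag2, Dll1, Fzd10, Egfr and Ntf3 lie lower in both KO libraries than in both controls, Notch3, Tgfb2, Sema3a and Slit2 lie higher, and Wnt6 overlaps.

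In the retinoic acid list 4 of 11 tested rose and 2 fell, with Rdh10, which makes retinal from retinol, at 6.68 and 5.89 CPM in WT and HET against 17.9 and 19.4 CPM in KO 1 and KO 2 and the receptor Rarg at 58.9, 50.2, 26 and 30.5 CPM. Of 10 Hedgehog genes 2 rose and 2 fell, beside 14.7% and 12.4% of all tested genes. Of interferon and MHC class I genes, 7 of 18 tested rose and 2 fell, and without cells with fibroblast RNA 9 of 19 rose and 2 fell. Bst2 was at 1.52, 4.49, 43.1 and 42.3 CPM (log2 fold change 3.73, SE 0.32, adjusted p = 0.0003) and Isg15 at 2.58, 1.7, 23.8 and 16.8 CPM, while Ifitm3 was at 760.5, 606, 70.1 and 101 CPM (log2 fold change -3.09, SE 0.19, adjusted p = 8.4e-05). Bst2 stood at 10.9, 8.98, 41.3 and 37.7 CPM and Isg15 at 2.51, 0.532, 17 and 14.9 CPM in marker-poor cells. Ifitm3 was at 72.7, 57.9, 165 and 176 CPM in those cells. There edgeR called Ifitm3 (log2 fold change 1.39, adjusted p = 0.024) and Bst2 (adjusted p = 0.012) higher in KO, and Isg15 did not pass (adjusted p = 0.076). The direction of Ifitm3 in marker-poor cells was thus opposite to that in epithelium. The KO difference in epithelium minus that in marker-poor cells was 1.79 (SE 0.38, adjusted p = 0.012) for Bst2, -0.24 (SE 0.46, adjusted p = 0.77) for Isg15 and -4.44 (SE 0.14, adjusted p = 3.1e-07) for Ifitm3. Among lipid genes, Fabp5, the epidermal fatty acid binding protein, was at 1214, 946, 223 and 283 CPM, and 5 of 18 tested rose and 3 fell.

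Cell cycle genes were lower by small amounts. Of 24 S phase genes none rose and 11 fell (median -0.36), and of 24 G2 and M phase genes none rose and 11 fell (median -0.39). Without cells with fibroblast RNA 1 S phase gene rose and 9 fell. Fen1, which trims DNA ends in replication, was at 89.2 and 85.2 CPM in WT and HET against 52.5 and 57.9 CPM in KO 1 and KO 2, and Ccnb1, which encodes cyclin B1, at 141, 128, 101 and 99 CPM. Mki67 was at 119, 124, 104 and 108 CPM and did not pass (adjusted p = 0.073). In marker-poor cells Fen1 was at 54.3, 51.9, 40.2 and 42.8 CPM and Ccnb1 at 124, 132, 111 and 88.8 CPM, and neither passed (adjusted p = 0.24 and 0.36). The difference between cell sets was called for 2 of the 24 S phase genes and 1 of the 24 G2 and M phase genes. Over all genes it was called for 16.8%. Of the p53 response list, 2 of 15 tested rose and 6 fell. Phlda3 was at 105, 83.7, 25.6 and 24.7 CPM and Aen at 78.1, 83.2, 36.4 and 38.1 CPM, while Mdm2 was at 24.2, 21.7, 25 and 23.2 CPM and did not pass (adjusted p = 0.92).

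A dissociation stress list joined immediate early genes and heat shock genes, which can rise during tissue digestion. In KO 9 of 16 tested rose and 1 fell (median 1.14), and without cells with fibroblast RNA 12 of 15 rose and 1 fell. The KO difference was called higher than in marker-poor cells for 12 of these genes, where 16.8% of all genes were called in either direction. Egr1 was at 9.12 and 16.1 CPM in WT and HET against 56 and 72 CPM in KO 1 and KO 2 and Jun at 33.1, 32.7, 58.2 and 95 CPM. In marker-poor cells Egr1 was at 59.4, 82.7, 50.3 and 99.7 CPM and Jun at 212, 181, 154 and 203 CPM, where KO 1 was lowest for both. The part of tissue handling in the result was not tested.

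Hox genes, which mark position along the body, were called in both directions. Of 15 tested genes of groups 1 to 6 none rose and 7 fell (median -0.43), and of 10 of groups 7 to 13, 4 rose and 2 fell (median 1.17). Hoxa5 was at 114 and 106 CPM in WT and HET against 26.4 and 26.9 CPM in KO 1 and KO 2 (log2 fold change -2.14, SE 0.12, adjusted p = 5.2e-05) and Hoxc5 at 74.9, 79, 40.9 and 38.1 CPM (log2 fold change -1.06, and -1.60 without cells with fibroblast RNA). Hoxb9 was at 2.43, 2.32, 22.1 and 23.2 CPM (log2 fold change 3.14, SE 0.22, adjusted p = 0.00014) and Hoxd9 at 0.911, 0.62, 15.9 and 26.7 CPM (log2 fold change 4.67, SE 0.41, adjusted p = 0.00032). Hoxa5 in marker-poor cells was at 7.08, 5.79, 5.72 and 6.41 CPM and Hoxb9 at 11.4, 12.3, 10.8 and 10.6 CPM, and the difference between cell sets was called for both, at -1.98 (SE 0.20, adjusted p = 0.00037) and 3.34 (SE 0.27, adjusted p = 0.00012). Hoxa7 ran from 66.8 to 321 CPM over the 4 libraries, with HET at 321 and WT at 152 CPM. The count filter left some genes of groups 7 to 13 untested. Of these, Hoxc10 had 6, 6, 5 and 121 UMIs and Hoxa10 had 1, 2, 3 and 34, high in KO 2 and not in KO 1. The others had at most 4 UMIs in any library. The position along the back at which each embryo was dissected is not in the labels and cannot be told apart from the arms. A list of genes of surface ectoderm and ectoplacental cone had 9 rises and no fall of 12 tested (median 0.80), among them Igf2 (282, 276, 568 and 629 CPM) and the paternally expressed Peg10 (1.06, 1.86, 14.5 and 27.5 CPM).

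The KO difference was also set against that at E15, from 128 epithelial cells chosen by the same rule, at 17 to 54 per library. It differed between the ages for 297 of 11889 genes (2.5%), and for 16 without E13 KO 2. Krt15, which was lower in KO at E13, was at 1172 and 825 CPM in E15 WT and HET against 1866 and 2704 CPM in the E15 KO libraries. The log2 difference of the differences was 4.91 (SE 0.54, adjusted p = 0.0046). The keratin pairs did not pass this test, with adjusted p of 0.069 for Krt14, 0.058 for Krt5 and 0.88 for both Krt8 and Krt18. All E13 libraries expressed Xist, at 1141 to 1537 CPM over all cells, and all E15 libraries expressed genes of the Y chromosome, at 126 to 151 CPM, so age and sex cannot be told apart.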

How the data were processed

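Whole-number UMI counts per gene and barcode were deposited by the authors for 8 libraries, per the file headers and values, and Cell Ranger, Seurat and mm10 are named per the submitters' processing notes, with versions and barcode filters not given in the sources used here. The gene table had 27998 genes. The members, the rule and the gene lists were chosen with earlier results of these data known. Filtered barcodes had 1000 genes or more and no more than 10% mitochondrial UMIs. No doublet caller was run. UMIs of the 580 selected cells were summed per library. The sums were analysed in R 4.3.3 with the quasi-likelihood F test of edgeR 4.0.16, after filterByExpr (minimum count 10) and TMM scaling, 2 libraries against 2 with 2 residual degrees of freedom. Benjamini-Hochberg adjustment ran over all genes, with a limit of 0.05. The SE is the absolute log2 fold change divided by the square root of F. Cell set by arm was fitted with the library as a term (2 residual degrees of freedom) and age by arm on 8 libraries (4). The 12 rule genes stayed in the fit and the adjustment, and 7 of them are among the genes counted as higher in KO. As they chose the cells, their test results are not given as findings. Named genes were Trp63, the 12 largest falls and 12 largest rises at an average log2 CPM of at least 5 with no overlap of arms, called members of each list (up to 6 per direction) and members needed for a pathway role. Some members are not reported here. Folds against 0 UMIs use a floor of 3 UMIs over the arm, and intervals are 95% and exact (binomial, on the split of UMIs between arms). They cover counting error only. On simulated data for this comparison (12069 genes) the test recovered 63% of 2-fold and 81% of 4-fold changes. DESeq2 1.42.0, other filters and cell rules, and leaving out each library were the alternatives. Coordinates are from GENCODE M21 (GRCm38, the same assembly as mm10) by gene ID.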

Additional observations from a re-analysis of the deposited data

Results flagged for a closer look

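In all, 29 named genes had a KO difference at E15 that departed from that at E13 (edgeR, age by arm on 8 libraries, adjusted p under 0.05), which is what marked them here. The values are the log2 KO difference at E15 minus that at E13, over 36, 21, 17 and 54 epithelial cells in E15 WT, HET, KO 1 and KO 2. Age and sex cannot be told apart, and the counts of genes called fell to 16 without E13 KO 2 and to 40 without E15 KO 2.

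Differentiation and basal genes that were lower in KO at E13 had higher values of this difference: 4.91 for Krt15, 3.98 for Krtdap, 4.26 for Dmkn, 2.60 for Zfp750, 2.67 for Perp, 2.81 for Trim29 and 3.48 for Cldn1. Krt15 had log2 fold changes of -3.82 at E13 and 1.10 at E15 (adjusted p = 0.077 at E15). Krtdap stood at 6505, 2364, 7947 and 9436 CPM and Dmkn at 2774, 1463, 1646 and 3203 CPM in E15 WT, HET, KO 1 and KO 2, far above their E13 levels in both arms. Signalling and positional genes of the same direction were 2.48 for Egfr, 1.56 for Wnt4, 2.20 for Wnt7b and 2.47 for Hoxa5. Krt19 and Klf5, which did not pass at E13, and Cldn4, which rose at both ages, had 6.51 for Krt19, 1.98 for Klf5 and 1.55 for Cldn4. Krt19 stood at 1.33, 7.35, 574 and 647 CPM at E15.

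Genes that were higher in KO at E13 had lower values: -4.22 for Adh1, -3.35 for Crabp2, -4.15 for Bst2, -4.57 for Hoxb9, -6.07 for Hoxd9, -3.91 for Igfbp2, -3.14 for Hspg2, -3.76 for Runx1, -3.26 for Trps1, -2.48 for Tgfb2, -2.44 for Vim, -2.44 for Cxcl14 and -1.68 for Notch3. Crabp2 had log2 fold changes of 2.63 at E13 and -0.72 at E15 (adjusted p = 0.19 at E15), and Adh1 3.16 at E13 and -1.06 at E15 (adjusted p = 0.22). Hoxd9 and Hoxb9 were at 1.76 to 16.5 CPM in the E15 libraries. Genes that fell further at E15 were marked as well, with -4.81 for Krt10 and -2.85 for Gjb6. Krt10, a keratin of differentiating cells, stood at 11390, 2823, 44.9 and 217 CPM at E15.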

How the results depend on the processing

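With DESeq2, 1840 genes were called for KO against control, 746 for the comparison with marker-poor cells and 481 for E15 against E13. With all 8 libraries in the fit 2135 were called for KO against control. Thinning cells to 5000 UMIs before the marker rule left 39, 26, 78 and 95 cells and gave 227 of 4399 genes for KO against control and 15 of 3269 for the ages. Without the filter on low counts the ages gave 1073. Leaving out each library in turn gave 2143 to 3023 genes for KO against control, 1479 to 2189 for the cell sets and 16 to 355 for the ages. Of 140 named genes called, 137 kept their call and direction with DESeq2, 132 with all 8 libraries, 137 without WT, 139 without HET, 140 without KO 1 and 138 without KO 2. Without cells with fibroblast RNA 135 kept both, 3 (Prrx1, Cdh11 and Twist1) lost the call, and Inhba (-0.53) and Fstl1 (-0.037) changed sign. At 5000 UMIs 51 of the 80 still tested kept the call and 29 lost it. No other alternative reversed a named gene. A rule of at least 6 markers gave 3536 genes for KO against control. Thinning to 2000 UMIs lowered the shares of cells with a UMI, for Krt14 in WT from 97.6% to 93.3% and for Krt8 in KO 1 from 87.9% to 74.8%. No paired analysis was possible because the KO libraries are numbered and WT and HET carry no number. Depth limits the E15 libraries, with 544113 to 1707791 UMIs in 17 to 54 epithelial cells each.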
